A study of Mus musculus with 2 samples.

Results

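The genes described here are the 6 replication-independent core histone variants H3f3a, H3f3b, H2az1, H2az2, Macroh2a1 and Macroh2a2, out of 55414 genes measured in single nuclei of the mouse myoblast line C2C12. They were chosen by symbol, with earlier results of these data known, and each symbol named 1 gene. There were 2 libraries and 1 library per group, both made with the Chromium v3 droplet method from methanol-fixed nuclei of the same line. Nuclei of the in situ polyadenylated library were incubated with yeast poly(A) polymerase, which adds A residues to RNA 3′ ends, before droplet capture. Nuclei of the standard library had the same handling up to the wash before the enzyme and were then counted, without the incubation and without the later wash, pelleting and resuspension, so the enzyme, the warm incubation and these later steps cannot be told apart. Neither library carries an engineered allele or a drug.

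Most histone mRNAs are made in S phase from clustered genes without introns and end in a stem-loop instead of a poly(A) tail. The variants are expressed outside S phase as well, from genes with introns and ordinary poly(A) signals. Histone H3.3, encoded by H3f3a and H3f3b, is placed on DNA independently of replication by the HIRA and DAXX-ATRX chaperones. H2A.Z, encoded by H2az1 and H2az2, is exchanged into nucleosomes around start sites by the SRCAP and p400 complexes and can be removed by ANP32E. MacroH2A, encoded by Macroh2a1 and Macroh2a2, carries a large additional macro domain and is known for its place on repressed chromatin.

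The 3′ ends of the members are shown first because the added enzyme acts on RNA 3′ ends. In GENCODE M39 (GRCm39), each of the 6 genes had a protein-coding transcript with AATAAA or ATTAAA in its last 60 bases, as did 82.4% of 21451 protein-coding genes. The stem-loop pattern, GGNNCT followed by TTTN and then AGNNCC (N is any base), was searched on the transcript strand. It was in 0 of the 6 members, in 37 of 58 replication-dependent core histone genes with a transcript and in 0.373% of protein-coding genes. H2ax, a further histone variant that marks DNA breaks once phosphorylated, held both elements. The 30-base windows of 5 members and of H2ax follow in the 5′ to 3′ direction, with the poly(A) signal or the stem-loop in capitals. The gene H2ac8, a replication-dependent H2A gene, is given for comparison.
H3f3a (chr1:180630130-180630159, minus strand): aagtttgctattaaaatacATTAAActata
H3f3b (chr11:115912809-115912838, minus strand): gccttacaAATAAActagtaagtttggagt
H2az2 (chr11:6377236-6377265, minus strand): tgcacagaAATAAAgaaactagcactagtg
Macroh2a1 short transcript (chr13:56243322-56243351, minus strand): gagaattgATTAAAagaggggtggggactg
Macroh2a2 (chr10:61574429-61574458, minus strand): aagaaaaaAATAAAagctccagcgtctttc
H2ax poly(A) signal (chr9:44247332-44247361, plus strand): ctaattttATTAAAggatcgtttggttttg
H2ax stem-loop (chr9:44246529-44246558, plus strand): tccacaaaGGCCCTTTTAAGGGCCaccacc
H2ac8 stem-loop (chr13:23754836-23754865, minus strand): aaaacaaaGGCTCTTTTCAGAGCCattcac
All windows lie in the untranslated stretch after the coding sequence. The H3f3a window also holds an earlier ATTAAA in lower case, since the hexamer nearest the transcript end was marked. Which copy acts as the signal was not tested. One of these hexamers was near the end of 25 of 28 annotated protein-coding transcripts of H3f3a, 7 of 11 of H3f3b, 8 of 18 of H2az2 and 10 of 11 of Macroh2a2. For Macroh2a1 it was 1 of 22, a transcript that ends inside the gene, and the other ends held neither hexamer in this stretch. H2ac8 also had AATAAA near its annotated end.

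The paralogs encode closely related proteins from distinct DNA. H3f3a (ENSMUSG00000060743.13, chr1:180628051-180642178) and H3f3b (ENSMUSG00000016559.15, chr11:115912738-115918788) had coding sequences of 408 bases without the stop codon that were identical at 313 positions, or 76.7%. For H2az1 (ENSMUSG00000037894.14, chr3:137570072-137572690) and H2az2 (ENSMUSG00000041126.17, chr11:6371231-6394481) it was 304 of 384 positions, or 79.2%. Macroh2a1 (ENSMUSG00000015937.16, chr13:56221111-56291059) and Macroh2a2 (ENSMUSG00000020086.7, chr10:61574420-61620380) shared 750 of 1116 positions, or 67.2%. Sequence was also shared with copies elsewhere in the transcriptome, which matters for reads assigned by 31-base words. Of the 31-base words of the reference transcript, 29.6% were shared with other genes for H2az1, 17.1% for H3f3b, 17.1% for H3f3a, 12.9% for Macroh2a2, 0.998% for H2az2 and 0% for Macroh2a1. In its last 300 words, H3f3a shared 26% and the other members 0%. H3f3a shared words with 611 other genes. The processed pseudogenes that shared most with H3f3a, H3f3b, H2az1 and Macroh2a2 held 0 or 1 UMI in nuclei of either library by either count. H2az2 shared 16 words with 4 genes, none of them a pseudogene, among which Phf20 had 5 of the words and 114 and 165 kallisto UMIs. What part reads shared with such copies had in the members' counts was not tested.

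Nuclei were barcodes with over 750 unique molecular identifiers (UMIs, molecules counted once) by kallisto, which matches reads to transcripts, and under 5% mitochondrial UMIs. The in situ polyadenylated library gave 1335 nuclei with a median of 1088 UMIs and 1974403 UMIs in all, and the standard library 1123 nuclei with a median of 996 and 1382984 in all. No nuclear barcode was found in both libraries. By STAR, which places reads on the genome, the medians were 6787.5 and 4478 UMIs. Protein-coding genes held 29.1% of kallisto UMIs in the in situ polyadenylated and 55.5% in the standard library. By STAR, the single gene Peak1 held 30.4% of the UMIs of the in situ polyadenylated nuclei and 0.102% of the standard nuclei, while kallisto gave it 135 and 192 UMIs. Of 10 myoblast markers, kallisto detected 8 in the in situ polyadenylated and 9 in the standard library, with Myf6 at 0 in both. Of the 1381 and 2109 UMIs of that list, Vim held 922 and 1314 and Des 360 and 636, while Myod1 had 15 and 13. Of 8 differentiated muscle markers, 7 and 8 were detected, with 147 and 120 UMIs, of which Myh3 held 99 and 77. The list of 9 markers of other cell types held 12 and 41 kallisto UMIs, 10 and 35 of them in Pecam1. Cd3e was at 0 by kallisto but at 1403 and 11 UMIs by STAR. With 1 library per group no difference between libraries has a replicate check, and the 95% intervals below cover counting error only.

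By kallisto H3f3b had the highest level of the 6 genes in both libraries, though its interval overlapped that of Macroh2a1 in the in situ polyadenylated library. By STAR Macroh2a1 and H3f3b overlapped at the top, with 53.4 and 48.0 CPM in the in situ polyadenylated and 144.4 and 143.5 CPM in the standard library. Counted by kallisto, H3f3b had 177 UMIs in the in situ polyadenylated nuclei, a level of 89.6 CPM (the share of all UMIs scaled to a fixed total; 95% Poisson interval 76.9 to 103.9), and 277 UMIs in the standard nuclei, or 200.3 CPM (177.4 to 225.3). H3f3a, which encodes the same H3.3 protein, had 9 and 25 UMIs, or 4.56 CPM (2.08 to 8.65) and 18.1 CPM (11.7 to 26.7). H3f3a had fewer UMIs than H3f3b in both libraries by either count. H2az1 had 85 UMIs, or 43.1 CPM (34.4 to 53.2), and 121 UMIs, or 87.5 CPM (72.6 to 104.5). H2az2 had 9 and 16 UMIs, or 4.56 CPM (2.08 to 8.65) and 11.6 CPM (6.61 to 18.8). Among the H2A.Z genes the first paralog was thus the larger, as the second was for H3.3. Macroh2a1 had 148 UMIs, or 74.96 CPM (63.4 to 88.1), and 180 UMIs, or 130 CPM (111.8 to 150.6). Macroh2a2 had 1 and 2 UMIs, below the floor of 3 UMIs under which no ratio was formed.

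**Figure D1:**
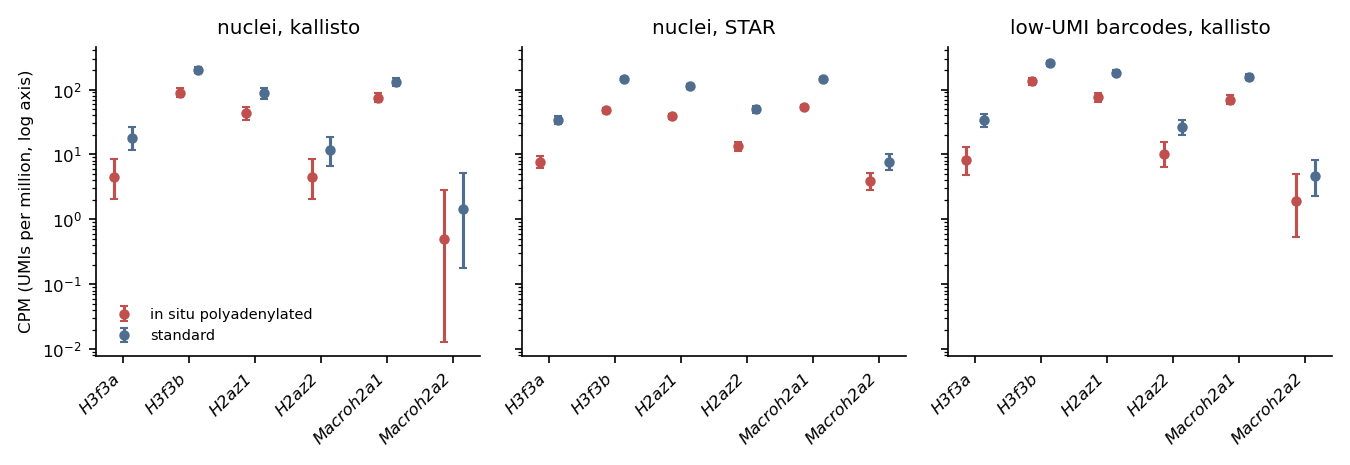
Levels of the 6 variant genes in CPM (vertical log axis) in nuclei by kallisto, in nuclei by STAR and in barcodes of 1 to 100 UMIs by kallisto; points are the 2 libraries and bars the 95% Poisson interval. In each panel every gene lay lower in the in situ polyadenylated library, and Macroh2a2 lay lowest of the 6.

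In case longer transcripts gave more UMIs, levels were also given per kilobase of a reference transcript. This was the lowest-numbered one with the coding length shared by both paralogs. In the standard library by kallisto the order was H3f3b at 100.2 CPM per kb (88.7 to 112.7), H2az1 at 70.6 (58.5 to 84.3), Macroh2a1 at 51.0 (43.8 to 59.0), H2az2 at 7.08 (4.05 to 11.5), H3f3a at 5.26 (3.404 to 7.76) and Macroh2a2 at 0.545 (0.066 to 1.97). H2az1 and Macroh2a1 overlapped, as did H2az2 and H3f3a. In the in situ polyadenylated library the order on the same scale was the same, from H3f3b at 44.8 (38.5 to 52.0) through H2az1 at 34.7 (27.7 to 42.9) and Macroh2a1 at 29.4 (24.8 to 34.5) to H2az2 at 2.79 (1.28 to 5.30), H3f3a at 1.33 (0.606 to 2.52) and Macroh2a2 at 0.191 (0.00483 to 1.06), with overlap between H3f3b and H2az1, H2az1 and Macroh2a1, H2az2 and H3f3a, and H3f3a and Macroh2a2. By STAR in the standard library H2az1 led with 89.9 CPM per kb, ahead of H3f3b with 71.8 and Macroh2a1 with 56.6. H2az2 stood at 30.3, H3f3a at 9.98 and Macroh2a2 at 2.90 on that scale. STAR thus exchanged H2az1 and H3f3b, and the intervals of H2az2 (27.0 to 33.9) and H3f3a (8.69 to 11.4) no longer overlapped. Introns made up 85.3% of the H2az2 gene and 56.7% of H3f3a, while the length used leaves introns out. The methods do not state whether the STAR counts include intron reads, and the part of such reads in the STAR order was not tested. Whether UMIs rise with transcript length in these libraries was not tested. By either count, the order per kb is therefore not an order of mRNA levels. Without the scaling H3f3a lay above H2az2 by kallisto in the standard library, at 18.1 and 11.6 CPM with overlapping intervals. Both were at 4.56 CPM in the in situ polyadenylated library. The annotated transcripts of H3f3b with the same coding length ran from 548 to 2514 bases and those of H2az2 from 593 to 1633, so the scale depends on the transcript taken. With the shortest one of each, H3f3b stood at 365.5 and H2az2 at 19.5 CPM per kb in the standard library.

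The main comparison asked whether adding tails in place alters how these polyadenylated histone mRNAs are counted. All CPM values were lower in the in situ polyadenylated library, and so was the median of the 2117 protein-coding genes that had 50 or more UMIs on both sides (log2 ratio −1.19), so ratios are given relative to that median. The relative log2 ratio, in situ polyadenylated over standard, was 0.03 (95% interval −0.25 to 0.31) for H3f3b and −0.80 (−2.08 to 0.35) for H3f3a. It was 0.17 (−0.25 to 0.58) for H2az1 and −0.15 (−1.51 to 1.11) for H2az2. Macroh2a1 was at 0.40 (0.07 to 0.72), the one interval of the 5 that lay wholly to one side of 0. It was at 0.02 (−0.47 to 0.52) in nuclei with over 1500 UMIs and at 0.26 (−0.07 to 0.58) with the median taken over genes with at least 200 UMIs, and its interval lay above 0 in the other 10 of 12 alternatives. The 6 genes summed to 429.1 and 620.6 UMIs, a relative log2 ratio of 0.14 (−0.04 to 0.32), and a log2 ratio of CPM of −1.05 (−1.23 to −0.87). The interval of the relative ratio lay wholly above 0 in 7 of 12 alternatives, among them STAR, and included 0 in 5. Some of the 12 could not alter a relative ratio, and they returned the main values for the sum and for Macroh2a1. These were no mitochondrial limit, no gene minimum, and a denominator without rRNA and mitochondrial genes. Of the 5 members with at least 20 UMIs over both libraries, 0 were at least 2-fold higher and 0 at least 2-fold lower than the median gene, where 3.63% and 12% of 8430 genes were. The members' median of 0.03 lay inside the middle range of protein-coding genes tested, −0.60 to 0.16 around a median of −0.21.

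By STAR the members had more UMIs and tighter intervals. H3f3a had 89 UMIs in the in situ polyadenylated and 214 in the standard nuclei, H3f3b 554 and 895, and the relative log2 ratios were −0.23 (−0.61 to 0.13) and 0.34 (0.19 to 0.50). H2az1 had 445 and 695 UMIs and a ratio of 0.39 (0.22 to 0.56), and H2az2 had 156 and 309 and a ratio of 0.05 (−0.24 to 0.33). Macroh2a1 had 617 and 901 UMIs and a ratio of 0.49 (0.34 to 0.64), and Macroh2a2 45 and 48 UMIs and a ratio of 0.94 (0.32 to 1.56). H3f3a had the lowest ratio by both counts. All 6 were tested and 0 were 2-fold away in either direction, against 15.9% of 13858 genes higher and 2.81% lower. The members' median was 0.37, where the middle range of protein-coding genes was −0.30 to 0.50. In barcodes of 1 to 100 UMIs the relative log2 ratio between the libraries was −0.01 (−0.15 to 0.12) for the 6 genes summed, and Macroh2a1 stood at −0.04 (−0.33 to 0.24). There H3f3a was at −0.93 (−1.78 to −0.16), from 17 against 81 UMIs. Of the 5 members with enough UMIs in that comparison, 0 were 2-fold away in either direction, against 7.26% of 10777 genes higher and 8.69% lower.

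**Figure D2:**
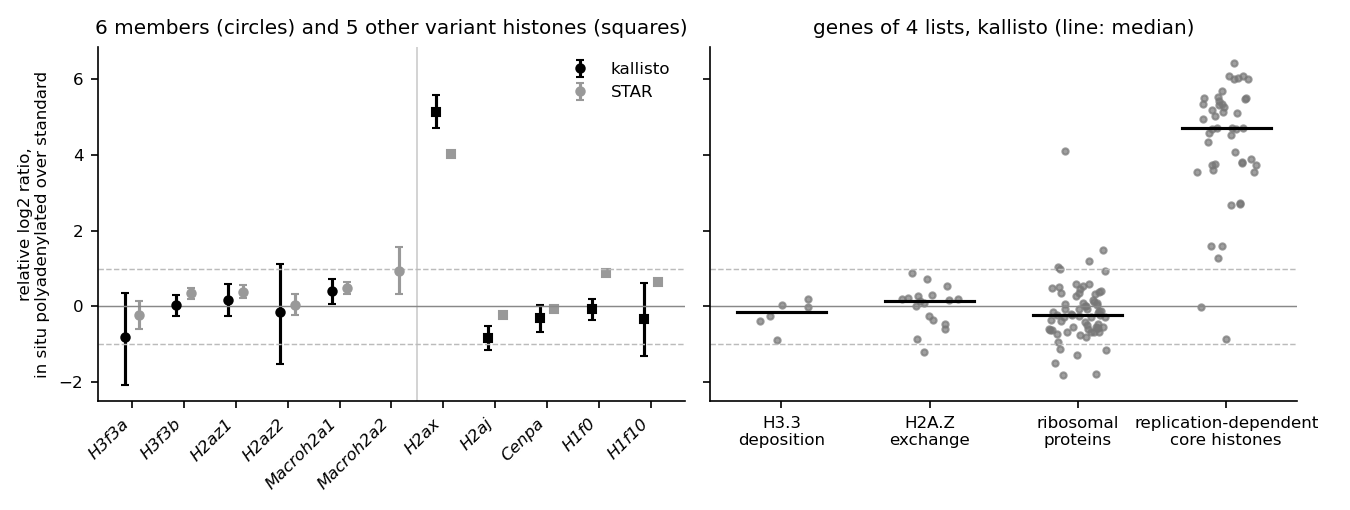
Relative log2 ratio of CPM, in situ polyadenylated over standard nuclei (vertical axis, 0 is the median protein-coding gene, dashed lines mark 2-fold), for the 6 members and 5 other variant histone genes by both counts (left; bars are 95% counting intervals, drawn for the members and for kallisto) and for single genes of 4 lists by kallisto (right; bar at the median). The members lay between −0.80 and 0.94, while H2ax stood at 5.13 by kallisto and the replication-dependent core histones had a median of 4.71.

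Other histone genes measured in the same nuclei give the scale of these values. H2ax had 1030.5 UMIs in the in situ polyadenylated and 47.3 in the standard library by kallisto, a relative log2 ratio of 5.13 (4.71 to 5.59), and 586 and 74 UMIs by STAR. H2aj was at −0.83, the centromeric H3 variant gene Cenpa at −0.31 and the linker histone genes H1f0 and H1f10 at −0.07 and −0.32. Of those 5 genes the stem-loop pattern was found in H2ax. Of 47 replication-dependent core histone genes tested, 45 were at least 2-fold higher, with a median of 4.71. The exceptions were H2ac24 at −0.02 and H2ac1 at −0.86. Match and ratio did not go together in every gene, since H2ac24 held the pattern, while H4c12 at 6.43 and H2ac15 at 5.47 did not, with transcripts annotated without a 3′ untranslated stretch. H2ac8, whose stem-loop is printed above, was at 1.29. Ribosomal protein genes, whose mRNAs are polyadenylated like those of the variants, had a median of −0.22 over 69 genes tested, 5 of them at least 2-fold higher and 6 lower. By STAR the same list had a median of 0.62 over 77 genes tested, 22 of them 2-fold higher and 0 lower. The difference between members and these genes has no replicate test.

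Genes that deliver the variants to chromatin were measured in the same nuclei. Of 7 H3.3 deposition genes, 6 were tested by kallisto and 0 were 2-fold away, with a median relative log2 ratio of −0.13. Atrx, a remodeler that works with DAXX, was the lowest at −0.90 (−1.03 to −0.76) with 625.1 and 1860 UMIs, and stood at −0.52 by STAR. Hira was the highest at 0.19 (−0.53 to 0.90) with 30 and 42 UMIs, but by STAR it was the lowest of the list at −0.54. Of 21 H2A.Z exchange genes 18 were tested, 0 were higher, 1 was lower and the median was 0.15. The lower one was Ruvbl1, an ATPase of several remodeling complexes, at −1.22 (−2.66 to 0.03) from 7 and 26 UMIs, and it stood at 0.37 by STAR. By STAR 2 of 21 H2A.Z exchange genes were 2-fold higher and 0 lower. They were Trrap, a scaffold of the p400 complex, at 1.47 (0.21 by kallisto) and Znhit1, a subunit of the SRCAP complex named after its value was seen, at 1.34 (0.73 by kallisto). Of 9 general histone chaperone genes, 8 were tested, 0 were 2-fold away and the median was −0.21. By STAR 0 of 7 H3.3 deposition genes and 0 of 9 general chaperone genes were 2-fold away. The kallisto range of the chaperones ran from Rbbp4 at −0.99 to Chaf1a, the large subunit of CAF-1, at 0.14.

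STAR counted each member more often than kallisto in the same barcodes. In the standard library the ratio of STAR to kallisto UMIs was 3.23 (2.82 to 3.71) for H3f3b and 8.68 (5.64 to 13.5) for H3f3a. It was 5.74 (4.73 to 7.03) for H2az1 and 19.3 (11.7 to 34.2) for H2az2. Macroh2a1 had a ratio of 5.01 (4.26 to 5.91), and Macroh2a2 of 24 (6.29 to 203.9) from 48 and 2 UMIs. Within the H3.3 and the H2A.Z pair the intervals did not overlap. The intervals treat both counts as independent, although both come from the same reads of the same barcodes. They therefore do not measure the error of this ratio, and their overlap is a description only. The kallisto count is the denominator, so a gene with few kallisto UMIs tends to a larger ratio by construction. In the in situ polyadenylated library the ratios were 3.15 (2.65 to 3.75) for H3f3b, 9.83 (4.98 to 22.3) for H3f3a, 5.24 (4.14 to 6.68) for H2az1 and 17.3 (8.90 to 38.6) for H2az2. Macroh2a1 was at 4.17 (3.48 to 5.02), and Macroh2a2 had 45 STAR UMIs and 1 kallisto UMI. Each member's intervals overlapped between the libraries.

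**Figure D3:**
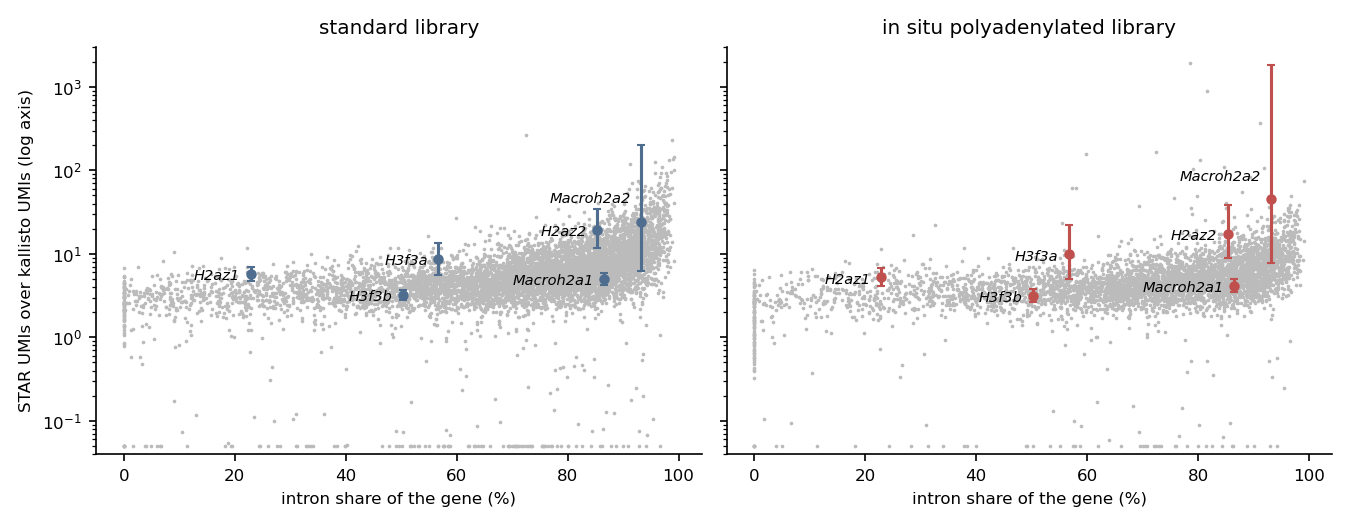
STAR UMIs over kallisto UMIs (vertical log axis) against the intron share of the gene in percent, for protein-coding genes with at least 20 kallisto UMIs (gray; ratios under 0.05 are drawn at 0.05, and 2 genes above 3000 in the in situ polyadenylated library are not shown) and the 6 members (color, with 95% counting intervals). In the standard library H2az2 stood at 19.3 from 16 kallisto UMIs, under the minimum of the gray genes, and Macroh2a1 at 5.01.

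The intron share of each gene is set beside these ratios because reads placed on the genome can fall in introns. Protein-coding genes in the standard library had a median ratio of 3.29 where introns made up under 50% of the gene, 5.29 at 50 to 90% and 12.2 above 90%. These classes hold genes with at least 20 kallisto UMIs, which H2az2 (85.3% intron) and Macroh2a2 (93.2%) did not reach, so both were left out of this comparison. Macroh2a1, with 86.5% intron, lay near the median of its class. H3f3a and H3f3b fell in the same class with 56.7% and 50.3% intron, the first above the upper quartile of 7.82, which its interval included, and the second below the lower quartile of 3.80. H2az1, at 22.8% intron the most compact of the 6, lay above the upper quartile of 4.34 of the lowest class. Relative to the median protein-coding gene of this comparison, 2 members were at least 2-fold higher in the standard library, H2az2 and Macroh2a2, where 34.1% of 12524 genes were. In the in situ polyadenylated library 3 were, the same 2 and H3f3a, where 40.8% of 11888 genes were. No member was 2-fold lower in either library, against 7.04% and 3.56% of genes. The part of pseudogene copies, runs of A and overlapping genes in these ratios was not tested. H3f3a, H3f3b, H2az1, H2az2, Macroh2a1 and Macroh2a2 held 4, 1, 0, 5, 6 and 10 runs of at least 10 A on the transcribed strand of the gene, where the median protein-coding gene held 2. Per 10 kb of the gene these were 2.83, 1.65, 0, 2.15, 0.858 and 2.18, against a median of 0.778.

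Barcodes with few UMIs hold RNA free in the droplets or nuclei sequenced thinly. Those of 1 to 100 UMIs were 229964 in the in situ polyadenylated and 226358 in the standard library, with 2055642 and 2394255 UMIs. In this range H2az1 was higher than in nuclei of the same library. It stood at 181.3 CPM in low-UMI barcodes and 87.5 in nuclei of the standard library, a relative log2 ratio of 0.99 (0.70 to 1.29), and at 76.9 and 43.1 CPM on the in situ polyadenylated side, 0.75 (0.36 to 1.15). This depended on the range of UMIs taken. In the standard library the H2az1 ratio was 0.60 (−0.02 to 1.19) with 1 to 10 UMIs and 0.24 (−0.05 to 0.53) with over 100 and up to 500 UMIs, and in the other 1.42 (0.75 to 2.04) and −0.012 (−0.46 to 0.43). H2az2 was at 1.12 (0.32 to 2.02) and 1.08 (−0.11 to 2.39) in the same order of libraries. H3f3b was at 0.28 (0.07 to 0.49) and 0.50 (0.22 to 0.78), and H3f3a at 0.84 (0.18 to 1.55) and 0.77 (−0.47 to 2.12). Protein-coding genes tested had a middle range of −0.19 to 0.50 around a median of 0.15 in the standard library. In the other it was −0.10 to 0.69 around a median of 0.27. H3f3b thus lay inside the middle range in both libraries, and H2az1, H2az2 and H3f3a above it. Of the 5 members with at least 20 UMIs, Macroh2a1 lay nearest to 0, with 0.19 (−0.07 to 0.46) and −0.19 (−0.53 to 0.16). It was inside the middle range in the standard library and below it in the other. The Macroh2a1 interval did not overlap that of H2az1 in either library. Macroh2a2 had 11 UMIs in low-UMI barcodes and 2 in nuclei of the standard library, and 4 and 1 in the other. Of the 5 members tested, 1 was at least 2-fold higher in the standard library, against 9.1% of 10730 genes, and 1 in the other, against 15.8% of 8018 genes, in both cases H2az2. In neither library was a member 2-fold lower, against 2.39% and 1.28%. Ribosomal protein genes, whose mRNAs are abundant in cytoplasm, had medians of 0.35 and 1.10 in the same comparison.

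**Figure D4:**
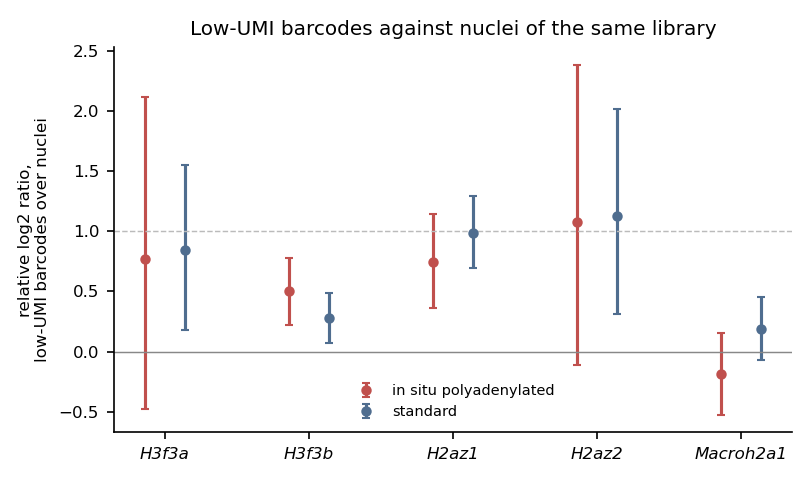
Relative log2 ratio of CPM in barcodes of 1 to 100 UMIs over nuclei of the same library (vertical axis, 0 is the median protein-coding gene, the dashed line marks 2-fold) for the 5 members with enough UMIs, with 95% counting intervals. Macroh2a1 lay nearest to 0 in both libraries, and H2az1 stood at 0.99 in the standard library.

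Few nuclei held a UMI of any one member. With each nucleus thinned to 750 kallisto UMIs, H3f3b was found in 6.37% of 1335 in situ polyadenylated nuclei (exact binomial interval 5.12 to 7.81) and in 12.7% of 1120 standard nuclei (10.8 to 14.8), leaving out 3 standard nuclei that rounding took below that depth. Macroh2a1 was found in 5.99% (4.78 to 7.40) and 7.32% (5.86 to 9.01), and H2az1 in 3.00% (2.15 to 4.06) and 6.43% (5.06 to 8.03). H2az2 and H3f3a were each found in under 1% of nuclei of either library. Macroh2a2 was found in 0 nuclei at this depth, which limits the share of nuclei with a UMI after thinning to 0.276% and 0.329% by the exact interval. Without thinning it was found in 1 and 2 nuclei by kallisto, and by STAR in 44 of 1328 (3.31%) and 48 of 1123 (4.27%). At least 1 of the 6 was found in 15.1% (13.2 to 17.1) and 24.7% (22.2 to 27.4). Without thinning these shares were 24.6% and 35.6% by kallisto, and 69.0% and 87.9% by STAR. By STAR the median nucleus held UMIs of 1 member in the in situ polyadenylated and 2 in the standard library, and H3f3a and H3f3b were found together in 37 of 1328 and in 109 of 1123 nuclei. The nuclei are of 1 cell line, so no cell type that lacks these genes was at hand as a background. Levels in low-UMI barcodes were above those in nuclei for each member except Macroh2a1 in the in situ polyadenylated library, with 70.1 against 74.96 CPM, and the part of free RNA in these shares was not tested.

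Within each library, nuclei were ranked by the share of STAR UMIs in 25 G2/M genes, and members were compared between the highest and lowest 25% of nuclei. In the standard library, with 280 nuclei in each set, both H2A.Z genes and H3f3b were higher in the G2/M-high nuclei. H2az1 had 178 against 119 UMIs, a relative log2 ratio of 0.71 (0.37 to 1.06), and H2az2 had 89 against 53, a ratio of 0.88 (0.37 to 1.40). H3f3b had 224 against 173 UMIs and a ratio of 0.50 (0.21 to 0.80), and H3f3a 57 against 44 and a ratio of 0.50 (−0.09 to 1.11). Macroh2a1 was nearly level, with 212 and 211 UMIs and a ratio of 0.14 (−0.14 to 0.42), and Macroh2a2 had 11 and 15. The 6 genes summed gave 0.46 (0.30 to 0.61). None of the 6 was 2-fold away, against 3.34% of 10186 genes higher and 2.61% lower.

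The same nuclei were also ranked by 28 DNA replication genes. In the standard library H2az1 had 206 against 108 UMIs in the replication-high and replication-low nuclei, a relative log2 ratio of 0.86 (0.52 to 1.21), the largest of the members with at least 20 UMIs. H2az2 had 86 against 73 and a ratio of 0.17 (−0.30 to 0.64). H3f3b was at 0.24 (−0.04 to 0.52), H3f3a at −0.10 (−0.68 to 0.48), Macroh2a1 at 0.28 (0.00041 to 0.57) and Macroh2a2 at 1.04 (−0.45 to 2.73) from 13 against 6 UMIs. Intervals thus lay above 0 for H2az1 in both rankings, for H2az2 and H3f3b in the G2/M ranking and for Macroh2a1 in the DNA replication ranking. With members counted by kallisto the H2az1 intervals included 0, with 0.75 (−0.15 to 1.69) for G2/M and 0.76 (−0.03 to 1.58) for DNA replication, and they lay above 0 in the other 3 of 4 alternatives of each ranking. For G2/M the interval lay above 0 in 2 of 4 alternatives for H2az2 and in 3 of 4 for H3f3b, and for DNA replication in 2 of 4 for Macroh2a1 and in 3 of 4 for H3f3b. The difference between the rankings was not tested. Of the 5 members with at least 20 UMIs, 0 were 2-fold away, against 1.98% of 10258 genes higher and 2.47% lower. Depth was near equal in these sets, with medians of 4395 and 4629 STAR UMIs for G2/M and 4461 and 4421 for DNA replication.

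In the in situ polyadenylated library, with 332 nuclei in each set, each member's interval included 0 in both rankings. H2az1 was at 0.27 (−0.14 to 0.68) for G2/M from 122 against 86 UMIs and at 0.26 (−0.19 to 0.71) for DNA replication, and Macroh2a1 at −0.28 (−0.63 to 0.08) and −0.02 (−0.38 to 0.34). Alternatives moved single intervals off 0. With nuclei ranked by protein-coding UMIs without Peak1, H2az1 was at 0.61 (0.19 to 1.03) for G2/M, and in the standard library at 0.81 (0.47 to 1.16). With 10% of nuclei per set H2az2 was at 1.35 (0.18 to 2.702) for G2/M and H3f3a at 1.81 (0.19 to 3.84) for DNA replication, and counted by kallisto Macroh2a1 was at −1.02 (−1.78 to −0.29) for G2/M. The sum of the 6 was at −0.04 (−0.24 to 0.15) and 0.10 (−0.10 to 0.30). The sets differed in depth there, with medians of 5133 and 7007.5 STAR UMIs for G2/M and 5382.5 and 6732.5 for DNA replication. The median protein-coding gene also differed between the sets, by 0.73 and 0.56 on the log2 scale, which is subtracted from the values given. Among the 5 members tested, 0 were 2-fold away in either ranking, against 3.05% of 8912 genes higher and 5.72% lower for G2/M and 2.11% of 8769 higher and 3.73% lower for DNA replication. The difference between libraries in these splits was not tested.

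**Figure D5:**
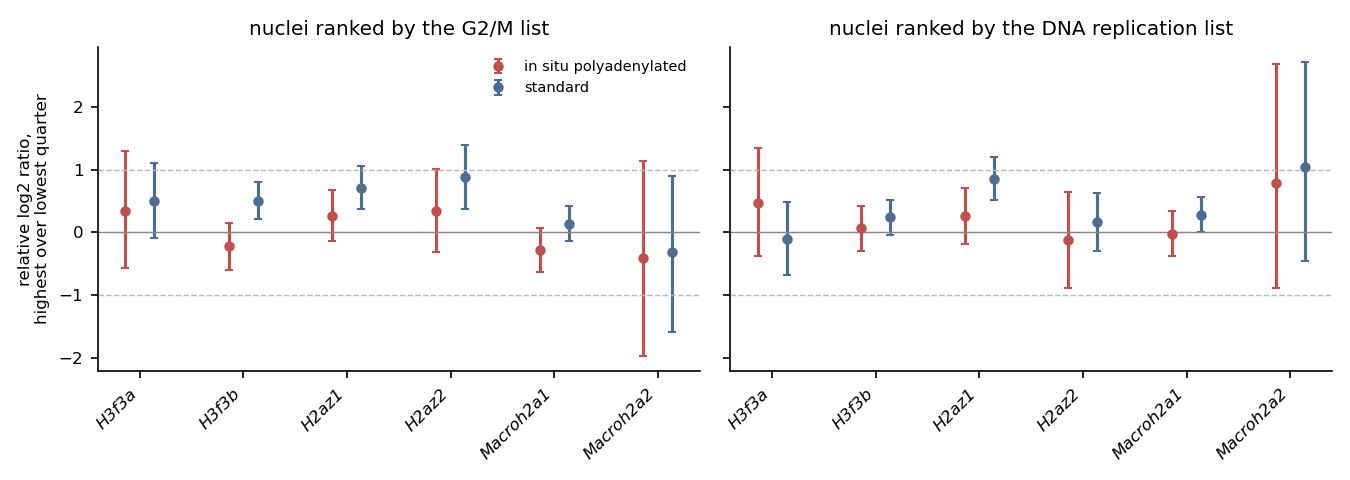
Relative log2 ratio of CPM by STAR in the highest over the lowest 25% of nuclei (vertical axis, 0 is the median protein-coding gene, dashed lines mark 2-fold), ranked by the G2/M list (left) and by the DNA replication list (right), with 95% counting intervals. In the standard library H2az1 stood at 0.71 and 0.86 and Macroh2a1 at 0.14 and 0.28.

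Genes with the most similar profile were found among 2891 protein-coding genes with at least 100 kallisto UMIs, by Euclidean distance of log2(CPM + 1), centred per gene, over 6 pools (nuclei by kallisto, nuclei by STAR and low-UMI barcodes of each library). The 6 pools come from 2 libraries and are not independent. Closest to H3f3b were Med25, Ccnl1 and Dus1l, at distances of 0.152 to 0.158, where the median gene was at 1.18. Closest to Macroh2a1 were Plekhg5, Prpf8 and Rgl3 at 0.150 to 0.188, with the median gene at 0.967. H2az1 lay nearest to Eif3l, Cyb5r3 and Smyd2 at 0.271 to 0.347, and H3f3a nearest to Calu, Poldip3 and Zfp207 at 0.244 to 0.315. H2az2 and Macroh2a2 had no neighbour as near. For H2az2 the first were Zcchc24, Ywhaz and Slc6a6 at 0.471 to 0.585, and for Macroh2a2 Nmt1, Srebf2 and Rarg at 0.847 to 0.955.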

How the data were processed

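Single-nucleus libraries of C2C12 cells were sequenced and processed by the authors, who trimmed reads with cutadapt 3.4 and counted UMIs on GRCm39 with GENCODE M28. The deposited kallisto 0.48.0 and bustools 0.41.0 matrices hold estimated counts (UMIs per gene that need not be whole, all barcodes). The deposited STAR 2.7.10a matrices hold whole-number counts for a subset of barcodes, whose choice is not described in the labels or methods. Reads shared between genes can be split in the first, and STAR allowed multimapping reads. UMI counts were summed over nuclei per gene, sums were rounded to whole numbers for levels, relative ratios and intervals (a sum printed with a decimal is unrounded), doublets were not removed, and no gene test was run since each group had 1 library. Ratios of CPM (UMIs of a gene over all UMIs of the same nuclei) have exact conditional Poisson intervals, were centred on the median protein-coding gene, and were called at 2-fold among genes with at least 20 UMIs. Ratio code was tested on simulated data. Gene classes, lengths and sequences came from GENCODE M39, not M28, and the 3′ end window of H2az1 is not reported here. The members, gene lists and tests were chosen with earlier results of these data known. Other genes are named if among the 3 with the most UMIs, highest or lowest of a list, alike in profile or sharing sequence. Alternatives covered the matrix, UMI minimum, barcodes, nuclei with the most UMIs left out, denominator, scaling, thinning depth and set size. Python 3.11.15, numpy 2.4.6, scipy 1.17.1 and pandas 2.3.3 were used.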

Additional observations from a re-analysis of the deposited data

How the results depend on the processing

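No paired analysis was possible because the design has 1 library per group, so no replicate was left out either. Intervals cover counting error alone, and the depth of about 1000 kallisto UMIs per nucleus leaves H3f3a, H2az2 and Macroh2a2 with few counts. In the library comparison, the relative log2 ratio of the 6 genes summed was 0.14, and moved outside its interval by STAR (0.35) and with over 1500 UMIs per nucleus (−0.059). The log2 ratio of CPM, −1.05, moved to −1.57 by STAR, −1.34 with over 1500 UMIs, −1.64 with over 750 STAR UMIs and −0.59 without rRNA and mitochondrial genes in the denominator. Centring on genes with at least 200 UMIs put the median gene at −1.05 instead of −1.19, and on those with at least 20 at −1.27. Members at least 2-fold higher went from 0 to 1 of 6 tested with over 750 STAR UMIs, where 21.5% of 17060 genes were. The other settings kept 0 of the members tested 2-fold away in both directions. With over 1500 UMIs only 3 members were tested. H3f3a at −1.32 (−3.14 to 0.24) and H2az2 at −1.05 (−3.64 to 1.08) had too few UMIs there to be counted.

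The low-UMI comparison was repeated with 2 other ranges. Summed ratios of 0.39 in the in situ polyadenylated and 0.48 in the standard library were 0.96 in the first with 1 to 10 UMIs, and 0.044 and 0.095 with over 100 and up to 500 UMIs, where H2az1 turned to −0.012 in the first and H3f3b to −0.15 in the second and the count of members 2-fold higher in the first went from 1 to 0. STAR over kallisto, summed and relative, was 0.19 and 0.07 and became 0.023 and −0.090 over all barcodes deposited with STAR, with a log2 ratio of UMIs of 2.45 instead of 2.30 in the standard library. The share of nuclei with any of the 6 was 10.6% and 17.2% thinned to 500 UMIs, 35.8% in the standard library thinned to 1000, and 24.6% and 35.6% without thinning.

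In the cell cycle splits, DNA replication gave a summed ratio of 0.51 instead of 0.10 after in situ polyadenylation and 0.19 instead of 0.36 in the standard library when members were counted by kallisto, where Macroh2a1 in the latter turned to −0.17, and 0.62 in the standard library with 10% of nuclei per set. With 10%, the count of members 2-fold higher went from 0 to 1 in 3 of the 4 splits, all but G2/M in the standard library. In the in situ polyadenylated library these were H2az2 for G2/M and H3f3a for DNA replication. With kallisto counts 1 member, Macroh2a1, was 2-fold lower in the G2/M split of the in situ polyadenylated library. The share over all genes is not given for the counts at these settings or at the other low-UMI ranges. These counts are therefore not read as results about the members. An alternative chosen after seeing the data, ranking by protein-coding UMIs without Peak1, left the summed ratios inside their intervals and the counts as they were, but moved H2az1 in the G2/M split of the in situ polyadenylated library from 0.27 to 0.61, with an interval above 0. The causes of these changes were not tested.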
